A study of Mus musculus with 40 samples.

Results

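A set of 10 general genes of leukocytes and macrophages was followed through a mouse cerebellum series: Mpeg1, Adgre1, Cd52, Nckap1l, Laptm5, Ptprc, Cyba, Cybb, Coro1a and Ly86. They were found by matching the Ensembl IDs of the deposited table, without version numbers, to these 10 symbols. All 10 were among its 54331 genes, and all 10 reached a value of 10 in every one of the 40 libraries, so that the filter on low values removed no member. The values that follow are read counts per gene as estimated and normalised by the authors.

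Cerebella of male C57BL6 mice of the genotypes DKO, CSB, INDY and WT were profiled, on a ketogenic diet (KD) or a standard diet (SD). There were 5 DKO KD, 4 DKO SD, 5 CSB KD, 6 CSB SD, 6 INDY KD, 6 INDY SD, 4 WT KD and 4 WT SD libraries. INDY is another name of Slc13a5, a citrate transporter, and CSB is the protein of Ercc6, which acts in transcription-coupled DNA repair and is mutated in Cockayne syndrome. The labels give no allele, age or housing, do not spell out DKO, and do not say whether each library came from its own animal, so p-values measure the spread between libraries only. The comparisons ask how genotype and diet, alone and combined, change cerebellar RNA.

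Microglia are the resident macrophages of the brain, and smaller macrophage populations line its vessels, meninges and choroid plexus. All of these cells share with blood leukocytes a set of proteins that belong to no single immune cell type. Among them are the CD45 phosphatase (Ptprc), the membrane subunits of the phagocyte NADPH oxidase (Cybb and Cyba), and organisers of the cortical actin skeleton (Nckap1l and Coro1a). Others act at the cell surface (Adgre1 and Cd52) or in lysosomes and phagosomes (Laptm5 and Mpeg1), or attend a Toll-like receptor relative (Ly86). In bulk RNA a higher level of such a gene can reflect more cells or more RNA per cell, and these cannot be told apart here.

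PU.1, a transcription factor of myeloid cells, binds sites around GAGGAA, and the member promoters that hold these letters are shown. The RefSeq promoter table (GRCm38.p6) held 9 promoters of 7 members, each with 250 bases before and 50 after the start. It held none for Adgre1, Cd52 and Nckap1l. GAGGAA, searched on both strands, occurred in 1 promoter each of Laptm5, Ptprc and Cybb, and in 28.3% of all 32851 promoters of the same length. The matches are in capitals, and TTCCTC is GAGGAA read on the other strand.
Laptm5, chr4:130913066-130913365, plus strand: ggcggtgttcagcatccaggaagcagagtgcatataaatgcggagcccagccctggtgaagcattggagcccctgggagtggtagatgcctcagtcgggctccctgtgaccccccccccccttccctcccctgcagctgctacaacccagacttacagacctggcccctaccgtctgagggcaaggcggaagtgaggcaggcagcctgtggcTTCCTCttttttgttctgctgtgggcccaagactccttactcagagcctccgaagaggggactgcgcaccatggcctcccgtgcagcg
Ptprc, chr1:138175256-138175555, minus strand: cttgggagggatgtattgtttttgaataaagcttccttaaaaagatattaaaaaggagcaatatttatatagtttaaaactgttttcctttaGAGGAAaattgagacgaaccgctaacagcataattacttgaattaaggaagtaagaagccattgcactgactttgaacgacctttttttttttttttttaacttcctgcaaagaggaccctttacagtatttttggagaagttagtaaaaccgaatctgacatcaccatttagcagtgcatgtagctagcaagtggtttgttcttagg
Cybb, chrX:9469275-9469574, minus strand: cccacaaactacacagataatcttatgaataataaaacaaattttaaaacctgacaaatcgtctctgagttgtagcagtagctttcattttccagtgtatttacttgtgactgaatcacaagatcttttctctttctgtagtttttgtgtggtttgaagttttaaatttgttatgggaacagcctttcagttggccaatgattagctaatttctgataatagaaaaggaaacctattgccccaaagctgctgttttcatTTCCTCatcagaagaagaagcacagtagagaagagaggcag
In windows whose start lies after base 250, the match began at base 213 in Laptm5, 93 in Ptprc and 260 in Cybb. Among the 9 promoters, the core of the interferon response element (GAAA, any pair of bases, GAAA) was found in Cybb only, as was the AP-1 motif TGANTCA, and in 3.44% and 7.81% of all promoters. The ETS core TTCCGG was found in 1 Coro1a promoter (14.9% of all), and TATAAA in Laptm5 and Ptprc (13.6% of all). Both strands were searched, and in the Cybb window the matches of the 3 motifs did not overlap. The RefSeq starts of Cybb, Laptm5, Ptprc, Coro1a and Ly86 lie inside the spans that the gene annotation gives these genes. A match of letters is a description of the window and shows no binding.

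The targeted genes were read first as a check of the labels. No Slc13a5 signal was present in 19 libraries of the 21 labelled INDY or DKO, against 82.1 to 161 in those labelled WT or CSB. Ercc6 averaged 605 ± 98.3 in the 20 CSB and DKO libraries and 887 ± 112 in the 20 WT and INDY libraries (SD). Gm6768, an unnamed gene model, ran from 929 to 1245 in all CSB and DKO libraries and was at 0 in 19 WT and INDY libraries, but at 1041 in the library labelled WT KD 25, whose Ercc6 was 633. That library therefore went against its WT label. Cerebellar markers (mean log2 of 13 genes) lay at 7.69 in the library labelled DKO SD 1 and at 10.5 to 12.8 in the other 39. Forebrain markers (18 genes) exceeded a mean log2 of 6.5 in 12 libraries, among them DKO SD 1 and 35 and WT KD 7, 12 and 25, but no CSB SD or WT SD library. The libraries labelled WT KD 7 and WT KD 12 held neutrophil transcripts that are described with Cybb and Ptprc. Sums of values per library ran from 23736702 to 32247186. The values are normalised, so the depth is unknown.

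Members differed widely in level. Per kilobase of the principal transcript, Coro1a had the highest mean over the 40 libraries (391 per kb), followed by Ly86 (206), Mpeg1 (167) and Laptm5 (165). Cd52 (133), Cyba (127), Nckap1l (56.7), Adgre1 (54.4) and Ptprc (52.0) came next, and Cybb was lowest at 21.0 per kb. In the 4 WT SD libraries Coro1a stood at 326 ± 35.0 per kb and Cybb at 11.6 ± 2.53 (SD), clear of their neighbours. Of the neighbours in between, some lay within their spread there, Ly86 at 139.6 ± 28.5 and Laptm5 at 113 ± 21.2 per kb, and Ptprc at 38.5 ± 0.53, Nckap1l at 35.5 ± 4.0 and Adgre1 at 34.2 ± 7.00 per kb. Cd52, at 67.3 ± 16.6 per kb, stood clear of Ptprc below it, and Mpeg1 (93.5 ± 14.4) and Cyba (90.7 ± 4.73) did not differ beyond their spread. The library INDY KD 20 was the lowest of all 40 for 7 members.

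**Figure D1:**
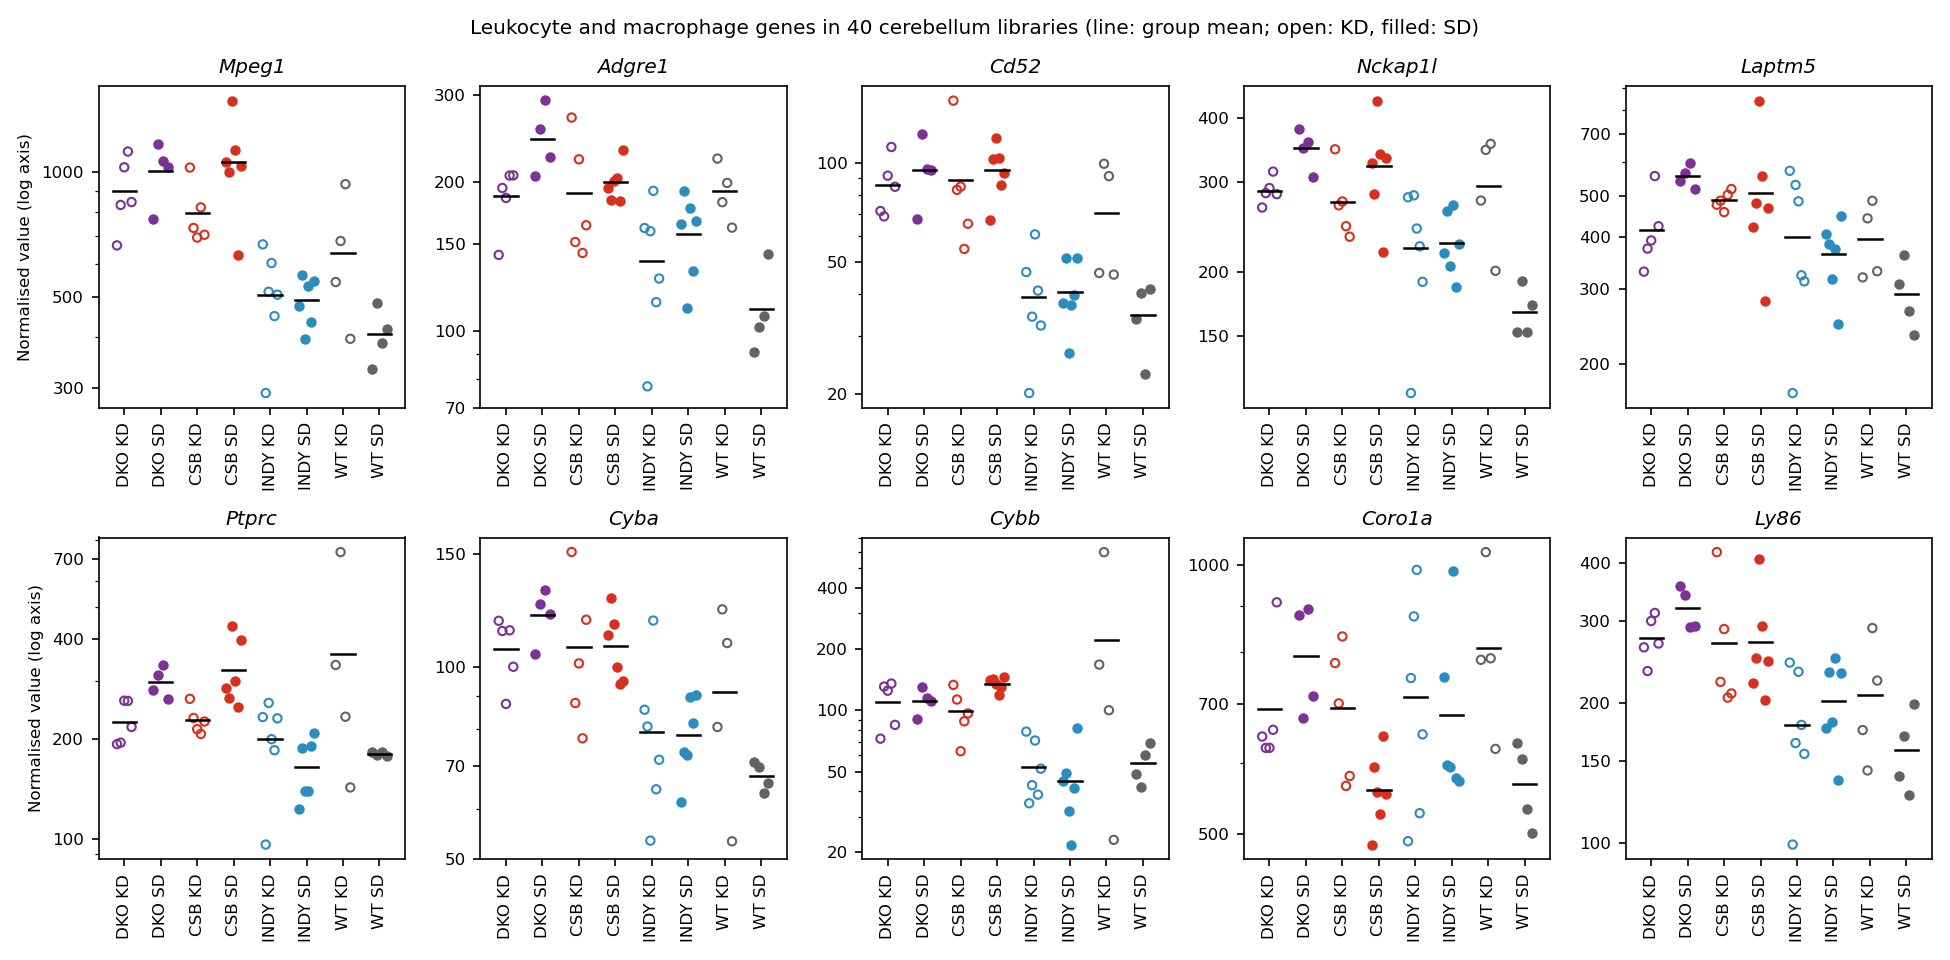
Normalised value (log axis) of each member in the 40 libraries, by group, with a line at the group mean. For Mpeg1, Cd52 and Cybb most DKO and CSB libraries sit above the INDY and WT SD libraries, the 4 WT KD libraries are spread widely, and Coro1a shows no such step.

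Most of these leukocyte and macrophage genes were higher in the CSB and DKO genotypes than in WT and INDY. With both diets averaged, 6 of the 10 members were called higher and none lower at an adjusted p under 0.05 (limma, Benjamini-Hochberg over 21367 genes). Of all tested genes, 0.796% were called in either direction and 0.566% higher. The members called were Mpeg1, Cd52, Ly86, Cyba, Nckap1l and Adgre1. All 10 were chosen with earlier results of these data known, so their counts beside all genes are a description and no independent support. The log2 differences of all 10 members had a median of 0.49, against 0.01 over all tested genes. Cybb (0.84, SE 0.22, adjusted p = 0.0511), Laptm5 (0.46, adjusted p = 0.0538) and Ptprc (0.37, adjusted p = 0.118) were not called, and Coro1a differed by 0.00 (adjusted p = 0.988). Without the library WT KD 12 the count was 9, all but Coro1a, and without WT KD 7 and WT KD 12 together it was 8, all but Laptm5 and Coro1a. It was 7 without WT KD 25 (with Laptm5), 7 without DKO SD 1 (with Cybb), and 6 with forebrain and liver marker levels as covariates. The shares of all genes called in these other fits are not given, so these counts describe the members only. Laptm5, Ptprc and Cybb, the members with GAGGAA in a promoter shown, were not called with all libraries but were called without WT KD 12. Of the 4 others in the promoter table, 3 were called with all libraries. A link between the motif and the calls was not tested.

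Mpeg1 (ENSMUSG00000046805.10, chr19:12460779-12465283 on the plus strand) encodes perforin-2, a pore-forming protein of macrophages that attacks engulfed bacteria. Its values were 666, 834, 848, 1029 and 1123 in DKO KD, and 772, 1031, 1068 and 1169.9 in DKO SD libraries. They were 695, 706, 733, 823 and 1027 in CSB KD, and 632, 1047 and 1492 (lowest, median and highest of 6) in CSB SD libraries. INDY KD libraries had 292, 509.8 and 669 (lowest, median and highest of 6), and INDY SD libraries 395, 503 and 565 (lowest, median and highest of 6). No CSB or DKO library fell below 632, and 17 of the 20 WT and INDY libraries lay below that value. WT KD libraries had 395, 543, 682 and 936, and WT SD libraries 335, 386, 417 and 484. The highest of these was the library labelled WT KD 25, at 936. CSB and DKO libraries averaged 944 ± 216, and WT and INDY libraries 508 ± 143 (SD, n = 20 each). The averaged difference was 0.90 log2 (SE 0.10, 1.87-fold, limma adjusted p = 4.92e-07). With WT KD 7, 12 and 25 set aside after seeing the data, 18 of 20 CSB and DKO libraries exceeded all other 17 WT and INDY libraries.

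Cybb (ENSMUSG00000015340.10, chrX:9435252-9487771 on the minus strand) encodes gp91phox, the catalytic subunit of the phagocyte NADPH oxidase. DKO KD libraries had 72.5, 84.7, 125, 131 and 135, and DKO SD libraries 90.4, 111, 115 and 130.1. CSB KD libraries had 62.9, 88.2, 96.5, 113 and 133, and CSB SD libraries 119, 137 and 146 (lowest, median and highest of 6). INDY KD libraries had 34.9, 47.2 and 78.6 (lowest, median and highest of 6), and INDY SD libraries 21.9, 43.1 and 81.4 (lowest, median and highest of 6). CSB and DKO libraries, from 62.9 up, and INDY libraries, up to 81.4, overlapped little. WT KD libraries had 23.1, 99.99, 168 and 598, and WT SD libraries 42.0, 48.7, 60.3 and 68.9. WT KD thus spanned both the lower end and the highest value of the series, with a mean of 222 ± 258 (SD, n = 4). The top values were those of WT KD 12 and WT KD 7. WT KD 7, 12 and 25 were set aside after seeing the data. They held the highest Cybb values of the WT and INDY libraries, so leaving them out was bound to widen the difference. Outside these, no WT or INDY library exceeded 81.4, and 18 of the 20 CSB and DKO libraries did. With all libraries the averaged difference of Cybb was 0.84 log2 and not called (limma adjusted p = 0.0511). It was 1.18 without WT KD 7 and 12 (limma adjusted p = 2.45e-05), and 1.44 without WT KD 25 as well.

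Cyba (ENSMUSG00000006519.11, chr8:122424776-122432930 on the minus strand) encodes p22phox, the partner that stabilises gp91phox and other NADPH oxidases. It ranged over 77.3 to 151 in CSB and DKO libraries and over 53.3 to 123 in WT and INDY libraries. The means were 109.9 ± 17.7 in CSB and DKO and 79.0 ± 19.4 in WT and INDY (SD, n = 20 each). The difference was 0.50 log2 (SE 0.10, 1.42-fold, limma adjusted p = 0.00255). The log2 ratio of Cybb to Cyba differed by 0.34 between CSB and DKO and the WT and INDY libraries (SE 0.21), which a permutation test of libraries within 4 sets, each a pair of genotypes on 1 diet, did not call (adjusted p = 0.188). Without WT KD 7 and 12, set aside after seeing the data and highest in Cybb, it differed by 0.63 (adjusted permutation p = 2.00e-04).

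Ptprc (ENSMUSG00000026395.16, chr1:138062861-138175708 on the minus strand) encodes CD45, the receptor tyrosine phosphatase of nucleated blood-lineage cells. DKO KD libraries had 194, 196, 218, 261 and 262, and DKO SD libraries 264, 282, 314 and 334. CSB KD libraries had 208, 215, 226, 232 and 265, and CSB SD libraries 249.7, 292 and 439 (lowest, median and highest of 6). All DKO SD libraries lay above all DKO KD libraries, while CSB SD and CSB KD libraries overlapped. INDY KD libraries had 96.4, 216 and 258 (lowest, median and highest of 6), and INDY SD libraries 123, 164 and 209 (lowest, median and highest of 6). WT KD libraries had 143, 234, 335 and 733, and WT SD libraries 178, 179.7, 183 and 183. The 4 WT SD libraries were nearly equal, and all 20 CSB and DKO libraries exceeded them. WT KD 12 was the highest of all 40. The averaged difference was 0.37 log2 (SE 0.13, limma adjusted p = 0.118). It was 0.55 (limma adjusted p = 0.00289) without WT KD 7 and 12. These were set aside after seeing the data and had the highest Ptprc of the WT and INDY libraries.

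Cd52 (ENSMUSG00000000682.7, chr4:134082448-134095082 on the minus strand) encodes a short, GPI-anchored and heavily glycosylated surface peptide of lymphocytes and macrophages. DKO KD libraries had 68.9, 71.6, 84.8, 91.6 and 112, and DKO SD libraries 67.8, 95.6, 95.9 and 123. CSB KD libraries had 54.9, 65.5, 83.0, 84.9 and 155, and CSB SD libraries 67.3, 98.1 and 119 (lowest, median and highest of 6). INDY KD libraries had 20.1, 37.6 and 60.8 (lowest, median and highest of 6), and INDY SD libraries 26.5, 38.8 and 51.7 (lowest, median and highest of 6). All INDY values but 1 lay below the lowest CSB or DKO value, 54.9. WT KD libraries had 45.9, 46.4, 91.3 and 99.5, and WT SD libraries 22.9, 33.7, 40.4 and 41.4. The libraries WT KD 12 and WT KD 25 lay in the range of the CSB and DKO libraries. Cd52 had the largest averaged difference of the 10 members, 1.04 log2 (SE 0.14, 2.05-fold, limma adjusted p = 4.74e-06).

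Adgre1 (ENSMUSG00000004730.15, chr17:57358691-57483527 on the plus strand) encodes F4/80, an adhesion G protein-coupled receptor used as a macrophage marker in mice. Its means were 187 ± 26.3 in DKO KD, 244 ± 38 in DKO SD, 190.0 ± 54.2 in CSB KD and 199.6 ± 17.7 in CSB SD libraries (SD). INDY KD averaged 139 ± 40.6, INDY SD 157 ± 29.9, WT KD 191 ± 25.9 and WT SD 111 ± 22.7 (SD). All 4 WT KD libraries exceeded the highest WT SD library. The averaged genotype difference was 0.48 log2 (SE 0.10, 1.40-fold, limma adjusted p = 0.00398), with 5 of 20 CSB and DKO libraries above all WT and INDY libraries.

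Laptm5 (ENSMUSG00000028581.17, chr4:130913125-130936141 on the plus strand) encodes a lysosomal membrane protein of blood cells that lowers antigen receptor levels. It ranged over 281 to 839.9 in CSB and DKO libraries and over 170.3 to 573 in WT and INDY libraries. Only 2 CSB and DKO libraries exceeded all WT and INDY libraries. Its averaged difference, 0.46 log2 (SE 0.12), was not called (limma adjusted p = 0.0538). Ly86 (ENSMUSG00000021423.6, chr13:37345208-37419036 on the plus strand) encodes MD-1, the secreted partner of the Toll-like receptor relative CD180. It averaged 281 ± 63.1 in CSB and DKO libraries and 187 ± 49.0 in WT and INDY libraries (SD, n = 20 each). The difference was 0.62 log2 (SE 0.11, 1.54-fold, limma adjusted p = 0.00108). No CSB or DKO library lay below the WT and INDY median.

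Nckap1l (ENSMUSG00000022488.9, chr15:103453794-103498810 on the plus strand) encodes HEM1, the blood-cell subunit of the WAVE complex, which starts branched actin growth. It averaged 308 ± 52.4 in CSB and DKO libraries and 228 ± 62.7 in WT and INDY libraries (SD, n = 20 each). The difference was 0.47 log2 (SE 0.09, 1.39-fold, limma adjusted p = 0.00292). In WT SD all 4 libraries, 153, 153, 173 and 192, lay below every CSB and DKO library.

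Coro1a (ENSMUSG00000030707.15, chr7:126699773-126707787 on the minus strand) encodes coronin-1A, an actin-binding protein abundant in leukocytes and also present in neurons. It was the 1 member with an averaged difference near 0. DKO KD libraries had 625, 625, 643, 654 and 908, and DKO SD libraries 675, 714, 880.0 and 893. CSB KD libraries had 566, 581, 700.3, 777 and 832, and CSB SD libraries 487, 556 and 643 (lowest, median and highest of 6). INDY KD libraries had 491, 697 and 987 (lowest, median and highest of 6), and INDY SD libraries 574, 596 and 984 (lowest, median and highest of 6). The 5 highest libraries of all were 2 INDY, 2 DKO and 1 WT library. WT KD libraries had 623, 783, 786 and 1033, and WT SD libraries 502, 534, 607 and 633. CSB and DKO averaged 672 ± 126, and WT and INDY 693 ± 168 (SD, n = 20 each). Coro1a ran from 700.3 to 1033 in the 12 libraries with high forebrain markers and from 487 to 777 in the other 28. The medians of all other members were also higher in these 12 than in the 28. They were 471 against 387 for Laptm5, 75.4 against 60.2 for Cd52 and 689 against 667 for Mpeg1. With forebrain and liver levels as covariates the averaged genotype difference of Coro1a was again 0.00 log2 (SE 0.06).

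**Figure D2:**
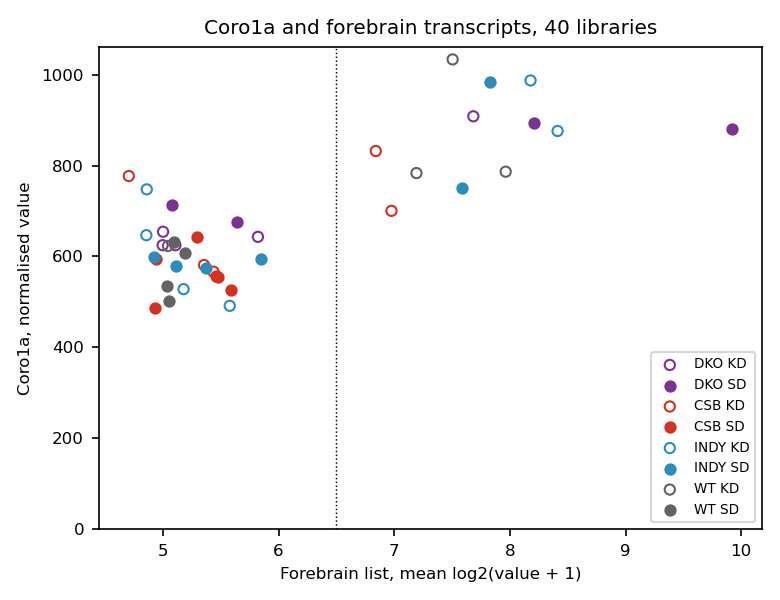
Coro1a (normalised value) against the mean log2(value + 1) of 18 forebrain markers in the 40 libraries; the dotted line is at 6.5. The 12 libraries right of the line have 700.3 to 1033, and the 28 left of it 487 to 777.

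The genotype difference was then read in 4 comparisons that share no library. Counts of genes above 0 or at an unadjusted p under 0.05, here and below, lack the share of all genes. They describe the listed genes only. On SD, CSB against WT gave 3 called members, all higher, beside 0.136% of all genes called (0.122% higher): Mpeg1 (1.35 log2, 2.55-fold, adjusted p = 0.00116), Cd52 (1.45, 2.73-fold, adjusted p = 0.00895) and Nckap1l (0.92, 1.89-fold, adjusted p = 0.0132). Adgre1 missed the threshold narrowly (0.86, adjusted p = 0.05004), and all members except Coro1a (-0.02) were above 0, with a median of 0.83 against 0.01 over all genes. For Cybb the CSB SD libraries (119 to 146) and the WT SD libraries (42.0 to 68.9) did not overlap, and the difference of 1.31 log2 (SE 0.44) was not called (adjusted p = 0.492). Cybb was called at the same difference in the fit of only these groups (adjusted p = 0.00902) and without the forebrain-high libraries (adjusted p = 0.0154). Liver transcripts moved with this comparison, with 16 of 16 markers above 0 and a median of 3.47 log2, and 11 of 13 microglia identity genes were above 0 (median 0.36, none called, 6 at an unadjusted p under 0.05). With forebrain and liver levels as covariates 1 member was called, Mpeg1 (1.24, adjusted p = 0.0144), and 1 was called without WT SD 41.

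On SD, DKO against INDY gave 1 called member, Mpeg1 (1.03 log2, 2.05-fold, adjusted p = 0.0285), beside 0.0608% of all genes (0.0468% higher). All 10 members were above 0, with a median of 0.67 against -0.01 over all genes, and 9 had an unadjusted p under 0.05. Cybb (1.39, adjusted p = 0.506) and Cd52 (1.21, adjusted p = 0.0885) had the highest differences. The Mpeg1 call was lost without INDY SD 9, 11 or 32, DKO SD 34, 35 or 36, or all libraries over the forebrain limit, at differences of 0.96 to 1.19 log2. On KD, DKO against INDY gave no called member (limma), beside 0.0983% of all genes (0.0842% higher). Cd52 (1.17, adjusted p = 0.0526) and Mpeg1 (0.85, adjusted p = 0.07) came closest, and 7 members had an unadjusted p under 0.05. Without INDY KD 15 both were called (adjusted p = 0.0447 for Cd52 and 0.0431 for Mpeg1), and Cd52 also without INDY KD 22.

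On KD, CSB against WT gave no called member (limma), beside 0.00468% of all genes, and none had an unadjusted p under 0.05. The highest differences were Mpeg1 at 0.37 log2 (SE 0.22) and Ly86 at 0.37, and the lowest were Ptprc at -0.40 and Cybb at -0.37 (SE 0.45). Setting aside WT KD 7, 12 and 25 left 1 WT KD library, whose spread is assumed to be that of the other groups. Without WT KD 25 alone no member was called, with Mpeg1 at 0.58. Without all 3, Mpeg1 was at 0.99 (adjusted p = 0.364) and Cybb at 2.01 (adjusted p = 0.0795). The difference of the CSB effect between diets was itself tested. It was below 0 for all 10 members, KD minus SD, with a median of -0.56 log2 against 0.00 over all genes, and none was called (limma, beside 0% of all genes; 6 had an unadjusted p under 0.05). Its largest size was in Cybb (-1.0, SE 0.43, adjusted p = 0.532), and Ptprc followed at -0.93 (SE 0.26, adjusted p = 0.532). Without WT KD 12 Cybb was at -0.63 (adjusted p = 0.564) and Ptprc at -0.71 (adjusted p = 0.473).

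**Figure D3:**
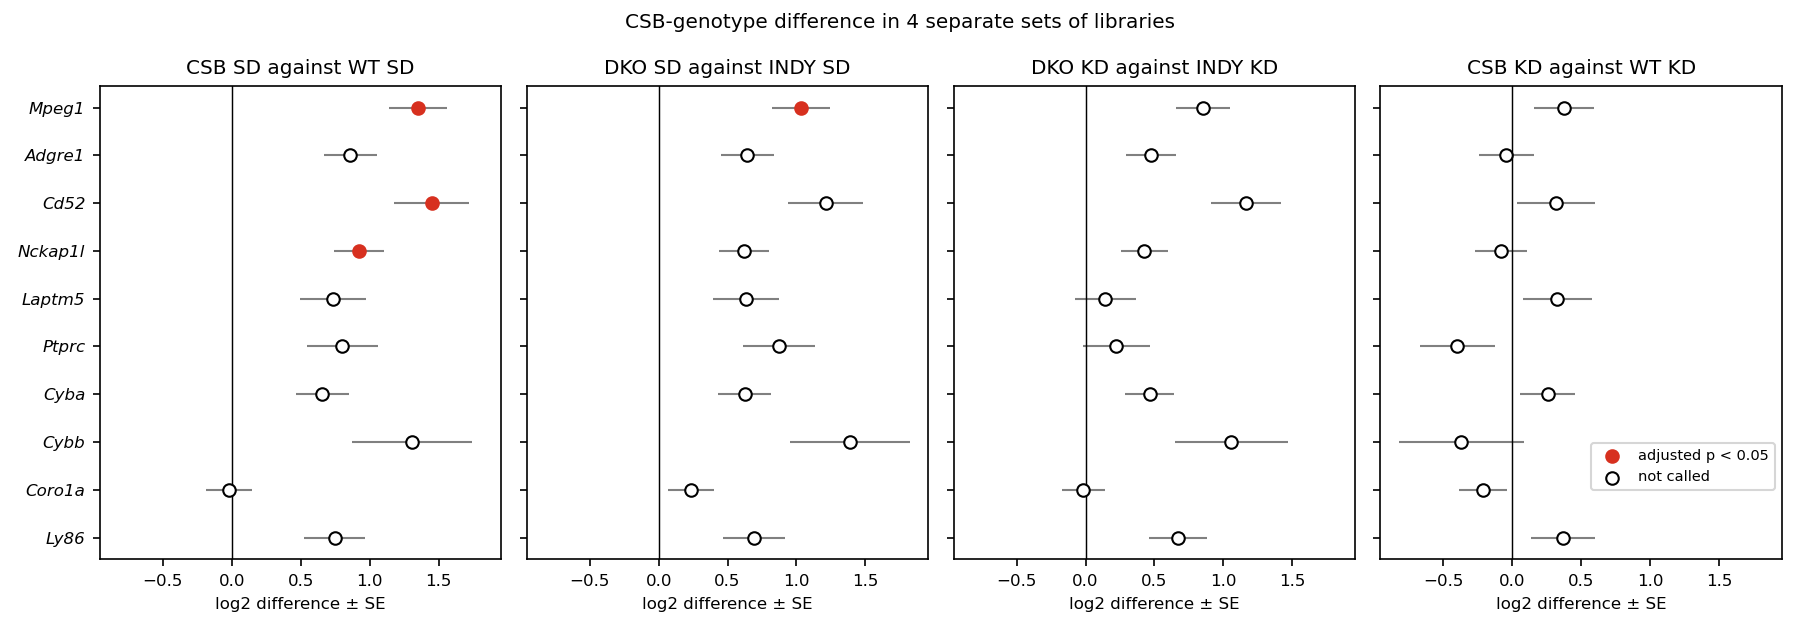
Log2 difference ± SE (limma) of each member in 4 comparisons with no library in common; filled red points have an adjusted p under 0.05. Mpeg1 lies at 1.35, 1.03, 0.85 and 0.37 from left to right, and Coro1a runs from -0.22 to 0.24.

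DKO SD and CSB SD were also set against the same 4 WT SD libraries. Of the 8 groups, WT SD had the lowest mean level of the 13 microglia identity genes (7.92 log2), and INDY KD was next (8.26). DKO SD against WT SD gave 7 called members, all higher, where 5.92% of all genes were called (3.1% higher and 2.82% lower). They were Mpeg1 (1.31 log2, 2.48-fold, adjusted p = 0.00581), Cd52 (1.44), Adgre1 (1.14), Nckap1l (1.06), Ly86 (1.03), Laptm5 (0.94) and Cyba (0.83). In this comparison 5 of 13 microglia identity genes were also called higher (median 0.64 log2), the forebrain markers had a median of 2.06 (18 of 18 above 0, 2 called) and the liver markers 2.36 (16 of 16 above 0, none called). DKO SD holds the library with low cerebellar markers, and without DKO SD 1 the count was 4 (Mpeg1, Adgre1, Cd52 and Nckap1l). It was 9 in the fit of only these groups, 4 without DKO SD 35, 3 without WT SD 39 and 2 without WT SD 41. With forebrain and liver levels as covariates it was 0. The share of all genes called in these other fits is not given here.

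The libraries labelled WT KD 12 and WT KD 7 held transcripts of neutrophils and their precursors. The 10 neutrophil markers summed to 13182 in WT KD 12 and 2894 in WT KD 7, against 19.2 to 427 in the other 38 libraries. S100a8, a calcium-binding protein of neutrophil cytosol, was at 2984 and 625 in these libraries and at most 112 elsewhere. Mpo, the myeloperoxidase of neutrophil granules, was at 435 and 212, against at most 8.95 elsewhere. Ptprc was at 733 in WT KD 12 and 335 in WT KD 7, the highest and 4th highest of 40, and Cybb at 598 and 168, the highest 2 of 40. Ly86, at 143 and 175, was among the lowest (36th and 32nd of 40), and Mpeg1, at 682 and 543, was in the middle (20th and 27th). The members thus did not move together in these libraries.

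**Figure D4:**
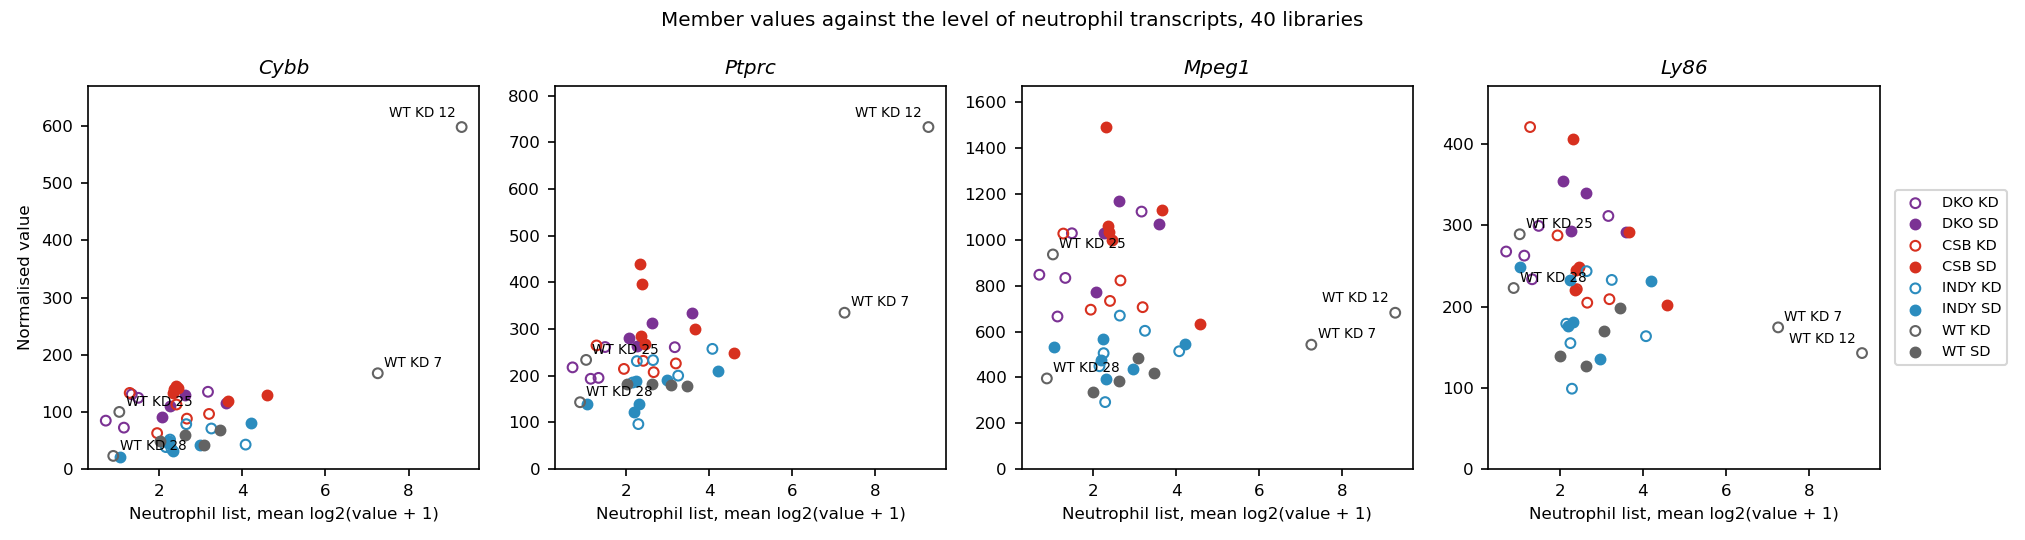
Normalised values of Cybb, Ptprc, Mpeg1 and Ly86 against the mean log2(value + 1) of 10 neutrophil markers in 40 libraries, with the 4 WT KD libraries named. WT KD 12 and WT KD 7 lie far right, with Cybb at 598 and 168 and Ly86 at 143 and 175.

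These libraries bear on every comparison with WT KD. INDY KD against WT KD gave no called member (limma, beside 0.00936% of all genes), with all 10 below 0 and 5 at an unadjusted p under 0.05. Cybb had the lowest difference (-1.28 log2, SE 0.44, adjusted p = 0.434). It was 0.06 without WT KD 7 and 12, which left WT KD 28 and WT KD 25, the library that went against its label. Without WT KD 28, the WT KD library with the lowest Cybb, it was -2.07 and called (limma adjusted p = 0.00638). DKO KD against WT KD gave no called member (limma, beside 0.00936% of all genes, 1 at an unadjusted p under 0.05), with Cybb at -0.22 and Mpeg1 at 0.54. Without WT KD 7, 12 and 25, Cybb was 2.16 and called (adjusted p = 0.0440), against the single library WT KD 28.

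With all libraries, diet changed no member past the threshold. In WT, KD against SD gave no called member (limma, beside 0% of all genes), with all 10 above 0 and 7 at an unadjusted p under 0.05. By p, these 7 ranked from 34 to 1240 among the 21367 tested genes. The share of all genes at such a p is not given. Cybb differed by 1.19 log2 (SE 0.48), Cd52 by 0.96, Adgre1 by 0.79 and Nckap1l by 0.78 (adjusted p = 0.22). Without WT KD 7 and 12, Cybb was -0.16 and Ptprc 0.02, while Adgre1 was 0.71 and Nckap1l 0.68, none called. This left WT KD 28 and WT KD 25, the library that went against its WT label. Nckap1l was at 201 in WT KD 28 and 357 in WT KD 25, and Adgre1 at 162 and 199. Without WT KD 28, Cybb was 1.98 and called (adjusted p = 0.0252). In this comparison with all libraries, 7 of 7 tested neutrophil markers were above 0 (median 1.78 log2), as were 17 of 18 forebrain markers (median 1.85). Beyond leaving libraries out, their part in the WT diet differences was not tested.

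In INDY, CSB and DKO no member was called for KD against SD (limma, beside 0%, 0% and 0.00468% of all genes), and none had an unadjusted p under 0.05. Member differences ran from -0.22 to 0.27 log2 in INDY, from -0.49 to 0.29 in CSB and from -0.44 to -0.06 in DKO. Averaged over genotypes they ran from -0.02 to 0.23, with no call and no unadjusted p under 0.05 (beside 0% of all genes). The diet response of each mutant genotype was also set against that of WT, which all share as a control. The medians over members were -0.57 log2 for INDY, -0.94 for CSB and -0.96 for DKO, with no called member (limma, beside 0.014%, 0% and 0% of all genes; 3, 6 and 7 at an unadjusted p under 0.05). Without DKO SD 36, Adgre1 (-1.22, adjusted p = 0.0407) and Nckap1l (-1.12, adjusted p = 0.0424) were called in DKO.

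The INDY genotype moved no member past the threshold. INDY and DKO against WT and CSB, averaged over diets, gave differences from -0.45 (Cybb) to 0.13 log2 (Coro1a), with no call (limma, beside 0.014% of all genes) and 1 unadjusted p under 0.05, that of Cybb. INDY SD against WT SD gave no call (beside 0.00468% of all genes), with Adgre1 at 0.50 and Nckap1l at 0.44 the highest, the 2 members with an unadjusted p under 0.05. There 8 of the 10 members were above 0, with a median of 0.25 log2. DKO against CSB gave no call on SD (limma, beside 0.00468% of all genes, 1 at an unadjusted p under 0.05, Coro1a at 0.49) or on KD (beside 0.0281%, none), with medians of 0.15 and 0.02 log2. The interaction of both genotypes was called for no member on SD or KD (limma, beside 0% and 0% of all genes; 0 and 2 at an unadjusted p under 0.05).

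Most members were higher relative to genes that define microglia as well. The log2 ratio of each member to the mean level of 13 microglia identity genes was compared between CSB and DKO and the WT and INDY libraries, within 4 sets (CSB SD with WT SD, CSB KD with WT KD, DKO SD with INDY SD and DKO KD with INDY KD), by a permutation test of libraries with 100000 resamples, adjusted over 20 ratios. The ratio was higher in CSB and DKO for 8 members: Cd52 by 0.88 (SE 0.13), Mpeg1 by 0.74 (SE 0.09), Cybb by 0.69 (SE 0.27), Ly86 by 0.46 (SE 0.07), Cyba by 0.34, Adgre1 by 0.32, Nckap1l by 0.31 and Laptm5 by 0.30. The adjusted permutation p was 6.67e-05 for Cd52, Mpeg1 and Ly86, from an unadjusted 1e-05, the smallest the permutations can give, and 0.0228 for Cybb. Ptprc (0.21, adjusted permutation p = 0.244) and Coro1a (-0.16, adjusted permutation p = 0.188) were not called. Without WT KD 12 Ptprc was 0.34 and called (adjusted permutation p = 0.00629). Cybb was 0.63 without WT KD 25 and 0.49 without WT KD 28, neither called (adjusted permutation p = 0.0672 and 0.108).

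The members also differed among themselves. Relative to Ptprc, Cd52 was higher in CSB and DKO by 0.66 log2 (adjusted permutation p = 1.00e-04), Mpeg1 by 0.53 (adjusted permutation p = 8.00e-05) and Cybb by 0.47 (adjusted permutation p = 0.00749), each above 0 in 4 of 4 sets. Coro1a was lower relative to Ptprc by -0.38 (adjusted permutation p = 0.0355), above 0 in 1 of 4 sets, and the call was lost without any 1 of 10 libraries, with differences of -0.36 to -0.32. Ly86, Cyba, Adgre1, Nckap1l and Laptm5 lay between 0.09 and 0.24 relative to Ptprc and were not called. Ptprc, the denominator of all these ratios, was the highest of 40 in WT KD 12 and the 4th highest in WT KD 7. Ratios to Ptprc without both libraries are not given here.

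**Figure D5:**
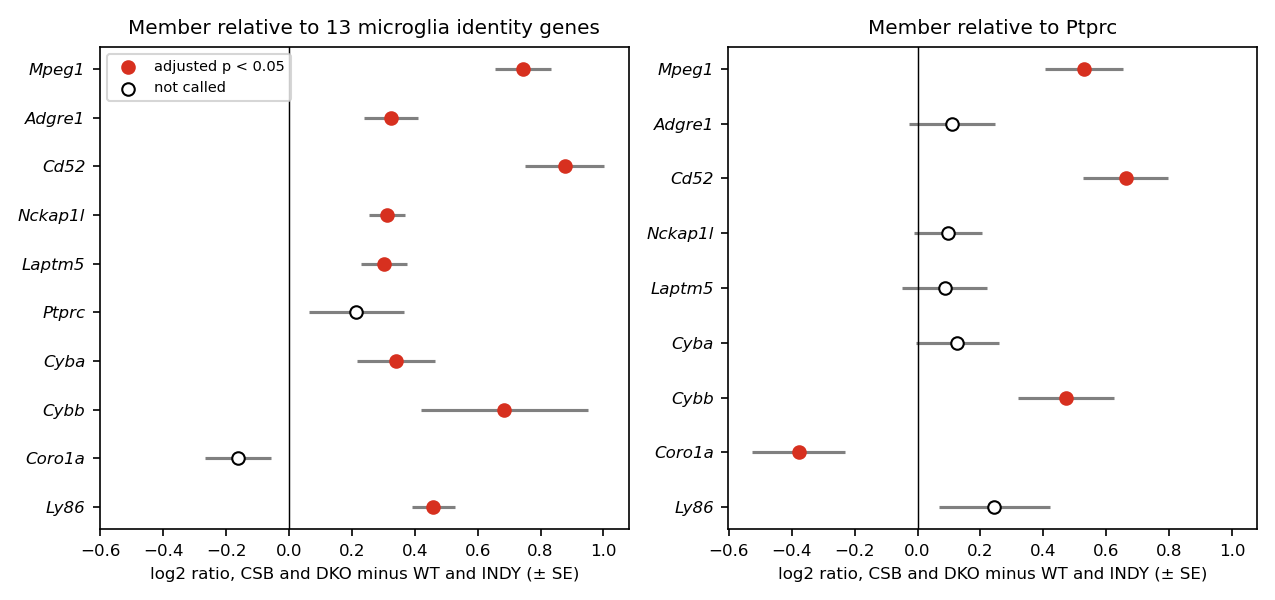
Difference in log2 ratio (± SE) between CSB and DKO and the WT and INDY libraries, for members relative to 13 microglia identity genes (left) and to Ptprc (right); filled red points have an adjusted permutation p under 0.05. Cd52 (0.88 and 0.66) and Mpeg1 (0.74 and 0.53) lie furthest right of 0, and Coro1a (-0.16 and -0.38) left of it.

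Partners of the members were read in the averaged comparison of CSB and DKO against WT and INDY. In it 0.566% of all tested genes were called higher and 0.796% in all. These lists, too, were chosen with earlier results of these data known. Of 10 tested genes of the phagocyte oxidase, 1 was called higher: Hvcn1, a voltage-gated proton channel (0.56 log2, adjusted p = 0.0336). Nox4, another NADPH oxidase (-0.27, adjusted p = 0.145), was not called. The list's median was 0.08, against 0.01 over all genes. Of 24 WAVE complex and actin genes 1 was called higher, Hcls1 of haematopoietic cells (0.45, adjusted p = 0.0358), with a median of 0.06. The Arp2/3 subunit Arpc1b (0.32, adjusted p = 0.0932) and the Rac activator Vav1 (0.27, adjusted p = 0.147) were not called.

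Toll-like receptors and their helpers, the setting of Ly86, had 4 of 16 genes called higher and none lower, with a median of 0.36. These were Cd14, the co-receptor for lipopolysaccharide (0.67, adjusted p = 4.50e-05), Tlr2 (0.55, adjusted p = 0.0180), and the endosomal receptors Tlr7 (0.60, adjusted p = 0.0237) and Tlr13 (0.44, adjusted p = 0.0339). Cd180, the receptor that MD-1 binds, was at 0.51 (adjusted p = 0.106). Leukocyte surface and CD45 signalling genes had 4 of 19 called higher and none lower, with a median of 0.26. Among them were the SLAM-family proteins Cd48 (0.90, adjusted p = 5.39e-05) and Cd84 (0.40, adjusted p = 0.00252) and the tetraspanin Cd53 (0.46, adjusted p = 0.00590). The 4 tested relatives of Adgre1 and Laptm5 gave no call (limma, 2 at an unadjusted p under 0.05): Laptm4a was at 0.14, Laptm4b at 0.10 and Adgre5 at -0.15.

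Markers of single cell types are given beside these counts. Of 13 microglia identity genes 1 was called higher, 10 were above 0, and the median was 0.20. Among those not called, Fcrls was at 0.65 (adjusted p = 0.0625), Tmem119 at -0.07 and P2ry12 at -0.13. The summed level of the 13 ran from 5355 to 10271 in CSB and DKO and from 3728 to 9524 in WT and INDY libraries. No gene was called among the tested border macrophage (10), T and NK cell (3), B cell (6), monocyte (7), neutrophil (7) and erythroid (7) markers (limma; 3, 0, 3, 3, 0 and 0 at an unadjusted p under 0.05), with medians of -0.16, -0.04, -0.03, -0.16, -0.87 and -0.10 log2. Summed neutrophil markers ran from 22.1 to 427 in CSB and DKO libraries and from 19.2 to 13182 in WT and INDY libraries. Cd3e, which defines T cells, averaged 1.09 in CSB and DKO and 1.21 in WT and INDY libraries, and was at 0 in 6 and 8 of 20. Liver markers were above 0 for 16 of 16 (median 0.71, none called, none at an unadjusted p under 0.05), and their part in the member differences was measured only by the covariate fit.

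Within groups, members varied together to different degrees. The Pearson correlation of deviations from group means over 40 libraries, given as a description since these values share their libraries and scaling, was 0.83 for Mpeg1 with Nckap1l and 0.78 for Ptprc with Cybb. For Ptprc with Cybb it was 0.55 without WT KD 7 and 12. For Ly86 it was 0.13 with Ptprc and -0.06 with Cybb, and 0.55 and 0.32 without those libraries. The median with the other members was 0.65 for Nckap1l, the highest, 0.37 for Cybb and 0.31 for Cyba. Coro1a had a median of 0.13 with the other members. The genes outside the set whose deviations were most like the members' mean, of 14232 ranked, were Cd53 (0.89), the Fc receptor gamma chain Fcer1g (0.85), Tmem176b (0.84), Fam111a (0.83), the adaptor Tyrobp (0.83), the cathepsin Ctsh (0.82), Myo1f (0.82), Rab32 (0.82), lysozyme Lyz2 (0.82) and Rhoa (0.81). Without WT KD 7 and 12 these values ran from 0.80 to 0.88.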

How the data were processed

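The 40 libraries hold rRNA-depleted total RNA, extracted with trizol and chloroform and sequenced with DNBseq, per the labels. The authors deposited 1 table with a signal for each gene in each library: read counts that were estimated and then normalised. The submitters' processing notes name Bowtie2, Salmon, DESeq2 and build mm9. Versions and order are not given in the sources used here. Values are not whole. In each library only 11.1% to 60.2% of low values fell within 0.02 of whole steps, so reads were not recovered, and no counting interval was computed.

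Symbols and positions came from GENCODE M21 on GRCm38, matched by ID (53444 of 54331 with version, 54097 without). This build differs from mm9, so positions are those of the annotated genes. Counting that is not stated to use strand cannot separate a gene from an antisense partner.

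Genes with at least 10 in 4 libraries (21367, of which 16143 protein-coding) were fitted on the log2(value + 1) scale by limma (3.58.1, under R 4.3.3), using trend and robust variances and 1 mean for each of 8 groups. The threshold was a two-sided Benjamini-Hochberg adjusted p of 0.05 in each comparison. Fold is 2 to the size of the log2 difference. Ratios were tested by two-sided permutation in Python 3.11.15. Code was tested on simulated data. Named partners were the 3 of each list with the smallest p and all calls in the average. Cd180, Tmem119, P2ry12 and Cd3e were named for their roles. A few genes that this rule selects are not reported here. Alternatives were pseudocounts of 0.5 and 5, no filter, rescaling, fits of only the groups compared, marker covariates, leaving out 12 forebrain-high libraries, and leaving out each library. Leaving out WT KD 7 and 12, with or without 25, was added after seeing the data. The members and lists were chosen with earlier results of these data known.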

Additional observations from a re-analysis of the deposited data

Results flagged for a closer look

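Of 80 sets of values (10 members in 8 groups of 4 to 6 libraries), 3 had a library far from the others by Dixon's ratio at 95%, where chance gives about 1 in 20 groups. Adgre1 in DKO KD had its lowest library at 142 (DKO KD 2), with the next at 186. Ptprc in INDY KD had its lowest at 96.4 (INDY KD 20), with the next at 185; that library was the lowest of all 40 for 7 members. Coro1a in DKO KD had its highest at 908 (DKO KD 47), with the next at 654, and this library is 1 of the 12 with high forebrain markers.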

How the results depend on the processing

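Over 250 results and 6640 alternatives, 6532 kept their side of the threshold, 56 lost a call and 49 gained one. Another 3 were called with the other sign, and no cause was tested. Most of the 250 results were not called with all libraries, so most alternatives that kept their side stayed uncalled. The 56 losses fall on the few results that were called. The sign also changed in 314 alternatives that were called neither way, such as Cybb without WT KD 12 (0.38 in CSB KD against WT KD, 0.53 in DKO KD against WT KD). The 3 were all of Cybb on KD. Without the forebrain-high libraries it was 2.13 (against -0.37) in CSB against WT and 2.24 (against -0.22) in DKO against WT. In DKO against WT it was 2.16 without WT KD 7, 12 and 25. In each of the 3, WT KD 28, with the lowest Cybb of the WT libraries, was the only WT KD library left. Without the forebrain-high libraries, members called were 1 in CSB KD against WT KD, 1 in DKO KD against WT KD and 0 in DKO SD against INDY SD; without WT KD 7, 12 and 25, 1 in DKO KD against WT KD. In DKO SD against WT SD 9 were called in the fit of only the groups compared, 4 with no filter and 0 with forebrain and liver covariates. In CSB SD against WT SD 1 was called with those covariates. Shares of all genes called are not given beside the counts from alternative fits, here or above. These counts therefore describe the members only. Leaving out single libraries gave 2 to 7 (DKO SD against WT SD), 1 to 4 (CSB SD against WT SD), 0 to 1 (DKO SD against INDY SD, INDY KD against WT KD, KD against SD in WT) and 0 to 2 calls (DKO KD against INDY KD, and the DKO minus WT diet response). It gave 6 to 9 in the average.

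Ptprc relative to microglia identity genes was 0.45 without the forebrain-high libraries, 0.44 without WT KD 7 and 12 and 0.48 without WT KD 25 too, and 0.13 to 0.34 without single libraries. Cybb relative to Cyba was 0.77, 0.63 and 0.76, and 0.20 to 0.49. Without single libraries Cybb relative to microglia identity genes ran from 0.49 to 0.89, and Coro1a relative to Ptprc from -0.45 to -0.32. No paired analysis was possible because each library number occurs once in the series. Depth is unknown and limits what low values can show.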
